A study of Mus musculus with 10 samples.

Results

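T-box genes encode transcription factors that bind DNA through a conserved domain, and 8 of them, Tbx1, Tbx2, Tbx3, Tbx4, Tbx5, Tbx15, Tbx18 and Tbx20, were followed in RNA-seq of mouse embryonic hearts at E12.5. They were chosen by name, and all 8 were found by their Ensembl identifiers among the 49662 genes of the deposited table. Of those genes, 17204 had a successful estimate in every group and reached 10 fragments in 1 or more groups, and all 8 T-box genes were among them. A fragment here is one read assigned to a gene, since the reads were single-end.

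The samples fell into 3 groups, and each sample pooled 2 to 3 hearts. Wild-normoxia (4 samples) were wild-type embryos whose mothers were kept at normal oxygen. Wild-hypoxia (3 samples) were wild-type embryos whose mothers had been kept at 14% oxygen from gestation day 10, for 2 days before dissection. Mutant-normoxia (3 samples) were embryos heterozygous for an Nkx2-5 knock-in allele, R52G, whose mothers were kept at normal oxygen. The mutation replaces one amino acid of Nkx2-5, a homeodomain factor of heart muscle, and is present in every cell of the embryo, so these groups do not tell an effect within the heart from one elsewhere in the embryo. The mutant line had been backcrossed to the 129/Sv strain, wild-type mothers were used throughout so that no mother carried the allele, and mutant-hypoxia hearts were not analysed here.

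In the embryonic heart, T-box factors divide the muscle into regions. Tbx5 and Tbx20 act with Nkx2-5 and Gata4 at genes of the working chambers, whereas Tbx2 and Tbx3 repress chamber genes in the atrioventricular canal and the conduction system. Tbx18 marks the epicardium and the sinus horns, and Tbx1 acts in pharyngeal tissue and in the second heart field that adds muscle to the outflow tract. Tbx4 is best known from the hindlimb and the lung mesenchyme, and Tbx15 from the skeleton and the dermis.

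The more abundant members, Tbx20, Tbx5, Tbx18, Tbx2 and Tbx3, had nearly equal counts in the 3 groups, each within 1 model standard error of wild-normoxia. Tbx4 and Tbx15, which had low counts, were 3.50-fold and 3.02-fold higher in mutant-normoxia than in wild-normoxia. Neither reached 2-fold in wild-hypoxia, and Tbx1 stayed under 2-fold in both groups.

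For every gene the deposited table gives 1 estimated count in each group and, beside it, the variance of the authors' model, and it has no column for an individual sample. Each value is therefore given with a model standard error (SE), the square root of the deposited variance after division by the number of samples. This error is not a measured spread between hearts. No test between groups could be made, no p-value is given, and overlap between samples of different groups could not be seen. Differences are log2 ratios of group counts after adding 1 fragment, which understates the change of low genes. The estimated counts summed to between 18.54 M and 19.58 M fragments per group, where M is 1000000. The 12 cardiomyocyte markers checked had no gene over 2-fold in either comparison with wild-normoxia, and they summed to between 598637 and 648023 fragments, so defining transcripts of heart muscle were abundant in all groups. Nkx2-5 itself had 3689 fragments (wild-normoxia), 4131 (wild-hypoxia) and 4106 (mutant-normoxia). A gene count does not see a single changed codon, so it does not check the genotype.

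Family members can resemble each other within the DNA-binding domain, and the reads were 40 bases long, so the sequences were compared first. Among the 28 pairs of members, the longest identical coding run was between 11 and 23 bases, and no pair reached the read length. Tbx15 and Tbx18 shared a run of 23 bases, and this stretch is printed to show how a 40-base read still tells the genes apart. It is given 5′ to 3′ in windows of 40 bases from GENCODE M1 (NCBIM37), with the identical run in capitals. The windows differed at 4 bases.
Tbx15: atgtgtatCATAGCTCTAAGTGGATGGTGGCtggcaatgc
Tbx18: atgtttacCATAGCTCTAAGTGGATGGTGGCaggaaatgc

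No 40-base word of any annotated coding transcript of a member occurred in another member. Outside the family, 33 such words of Tbx5 (0.850% of its words), 13 of Tbx15 (0.369%) and 14 of Tbx18 (0.302%) occurred in transcripts of other protein-coding genes. Tbx1, Tbx2, Tbx3, Tbx4 and Tbx20 shared no such word with any other protein-coding gene. Mismatches allowed in mapping were not modelled.

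The 8 genes lie on 5 chromosomes, and 4 of them form 2 neighbouring pairs. In NCBIM37 coordinates, Tbx2 (ENSMUSG00000000093, chr11:85646053-85655450, plus strand) lies 44473 bp before Tbx4 (ENSMUSG00000000094, chr11:85699924-85729599, plus strand). Tbx3 (ENSMUSG00000018604, chr5:120120678-120134733, plus strand) lies 149938 bp before Tbx5 (ENSMUSG00000018263, chr5:120284672-120335227, plus strand). The other members stand alone. Tbx20 (ENSMUSG00000031965, chr9:24527648-24578746, minus strand) and Tbx18 (ENSMUSG00000032419, chr9:87597635-87626095, minus strand) share a chromosome but are far apart. Tbx15 (ENSMUSG00000027868) is at chr3:99044304-99158182 on the plus strand and Tbx1 (ENSMUSG00000009097) at chr16:18581806-18588113 on the minus strand. The longest annotated transcript had 7 exons for Tbx1, Tbx2 and Tbx3, 8 for Tbx15, Tbx18 and Tbx20, and 9 for Tbx4 and Tbx5. The antisense gene Gm2301 overlaps Tbx3, and reads of overlapping genes cannot be told apart without strand. Gm2301 had 21.2 fragments in wild-normoxia, against 497 for Tbx3.

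To compare levels between genes, fragments were divided by the length of the annotated exons in kilobases and by the group's total, per 1000000 fragments. This total covered genes with a successful estimate in every group, 18.16 M (wild-normoxia), 18.35 M (wild-hypoxia) and 18.45 M (mutant-normoxia). The annotation behind the table may not be the one used for these lengths, so the levels between genes are approximate. Per length, Tbx20 was the most abundant member in every group, at 126 ± 9.0 (wild-normoxia, ± model SE), 118 ± 9.7 (wild-hypoxia) and 125 ± 10.2 (mutant-normoxia). Of the 15644 compared genes with a length, 97.9% had a lower level than Tbx20 in wild-normoxia, and Tbx20 made up 66.4% of the summed level of the 8 genes. Tbx5 came next at 31.8 ± 2.0, above 86.6% of genes. Tbx18 (13.5 ± 0.89) and Tbx2 (11.9 ± 0.82) followed, and they were not separated by more than 2 model SE in any group. Tbx3, at 5.10 ± 0.39, was below the median of all genes, which was 7.07.

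A gap of unequal size separated these 5 genes from the other members. Tbx3 was 9.24 times as high per length as the next gene, Tbx1, in wild-normoxia, and 5.03 times in wild-hypoxia. In mutant-normoxia Tbx3 was 2.97 times as high as the next gene, Tbx4, less than the ratio of 3.71 between Tbx20 and Tbx5. Tbx1 (0.55 ± 0.11), Tbx4 (0.53 ± 0.095) and Tbx15 (0.41 ± 0.086) lay within 2 model SE of their neighbours in the order, and only 8.57% of genes had a lower level than Tbx15. Together, Tbx1, Tbx4 and Tbx15 held 0.783% (wild-normoxia), 1.29% (wild-hypoxia) and 2.12% (mutant-normoxia) of the summed level of the family. Their order was Tbx1, Tbx4, Tbx15 in both wild-type groups and Tbx4, Tbx15, Tbx1 in mutant-normoxia, but neighbours among them were not separated by more than 2 model SE in any group. Tbx20, Tbx5, Tbx18, Tbx2 and Tbx3 thus stood above Tbx1, Tbx4 and Tbx15 in every group. The lower set includes Tbx1, which acts in the second heart field.

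**Figure D1:**
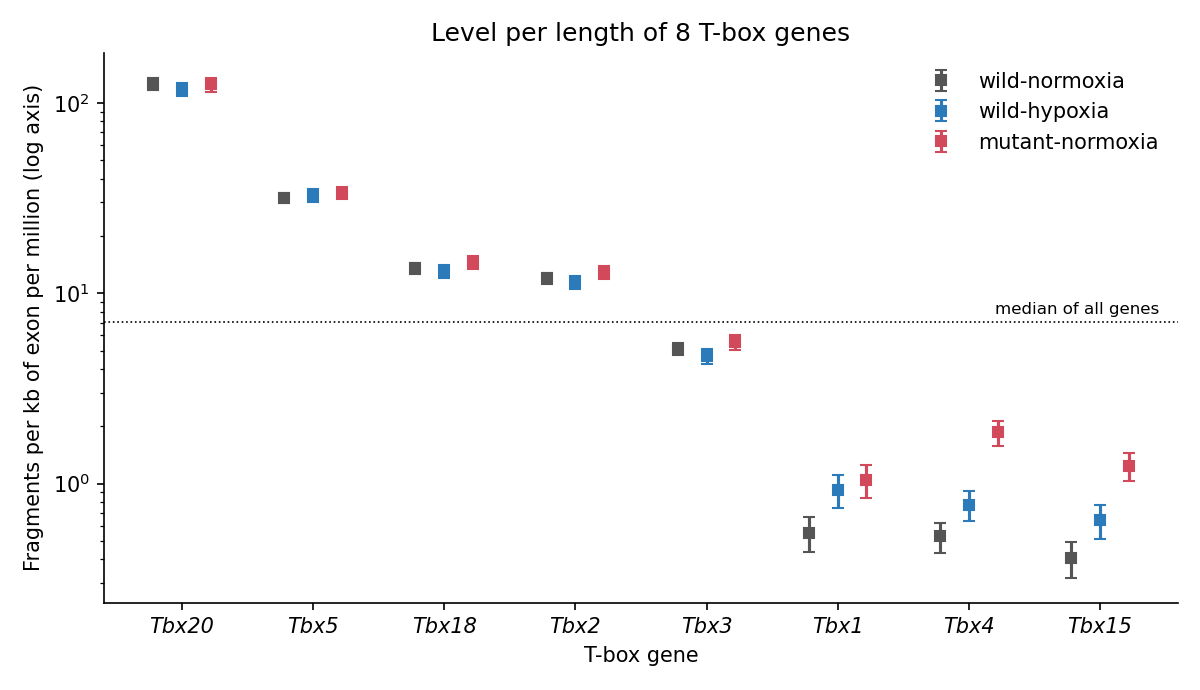
Level per length of the 8 T-box genes (fragments per kilobase of exon and 1000000 fragments, log axis) in wild-normoxia (grey), wild-hypoxia (blue) and mutant-normoxia (red). Squares are group values, bars 1 model SE and the dotted line the median of all genes in wild-normoxia; Tbx20 stands at 126 and Tbx15 at 0.41 in wild-normoxia.

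Of the 5 abundant members, none moved by as much as 1 model SE from wild-normoxia in either wild-hypoxia or mutant-normoxia. Among all genes compared, 75.3% were within 1 model SE in wild-hypoxia and 82.6% in mutant-normoxia, so a gene that stays within this range is the usual case. The 5 differences were between -0.11 and 0.06 (log2) in wild-hypoxia and between 0.01 and 0.13 in mutant-normoxia. The wild-normoxia samples enter both comparisons, which are therefore not independent.

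Tbx20, which is needed for growth of the chamber muscle, had 10281 ± 734 fragments (wild-normoxia), 9721 ± 796 (wild-hypoxia) and 10356 ± 848 (mutant-normoxia). The difference from wild-normoxia was -0.08 ± 0.16 (log2, model SE) in wild-hypoxia and 0.01 ± 0.16 in mutant-normoxia. The 3 group values therefore overlapped within their errors.

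Tbx5, an activator of chamber genes whose loss of one copy causes Holt-Oram syndrome in humans, had 2274 ± 143, 2366 ± 175 and 2449 ± 179 fragments in wild-normoxia, wild-hypoxia and mutant-normoxia. Its differences were 0.06 ± 0.14 and 0.11 ± 0.14 in wild-hypoxia and mutant-normoxia. Both lay within the model error.

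Tbx2 and Tbx3 are the repressors that keep the atrioventricular canal from taking on chamber identity. Tbx2 had 787 ± 54.2 fragments (wild-normoxia), 762 ± 60.9 (wild-hypoxia) and 859 ± 69.3 (mutant-normoxia), with differences of -0.05 ± 0.15 and 0.13 ± 0.15. Tbx3, which also marks the conduction system, had 497 ± 38.1, 460 ± 41.7 and 546 ± 48.8 fragments in the same order, with differences of -0.11 ± 0.17 and 0.13 ± 0.17. For both genes wild-hypoxia was the lowest group and mutant-normoxia the highest. Between those 2 groups the difference was 0.17 ± 0.16 for Tbx2 and 0.25 ± 0.18 for Tbx3, both within 2 model SE. The antisense Gm2301 moved from 21.2 to 33.1 fragments between wild-normoxia and mutant-normoxia, a gain far below the size of the Tbx3 count.

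Tbx18, the epicardial and sinus horn member, had 1148 ± 75.7 fragments (wild-normoxia), 1122 ± 84.9 (wild-hypoxia) and 1254 ± 94.7 (mutant-normoxia). Its differences were -0.03 ± 0.14 and 0.13 ± 0.14, again within the model error.

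**Figure D2:**
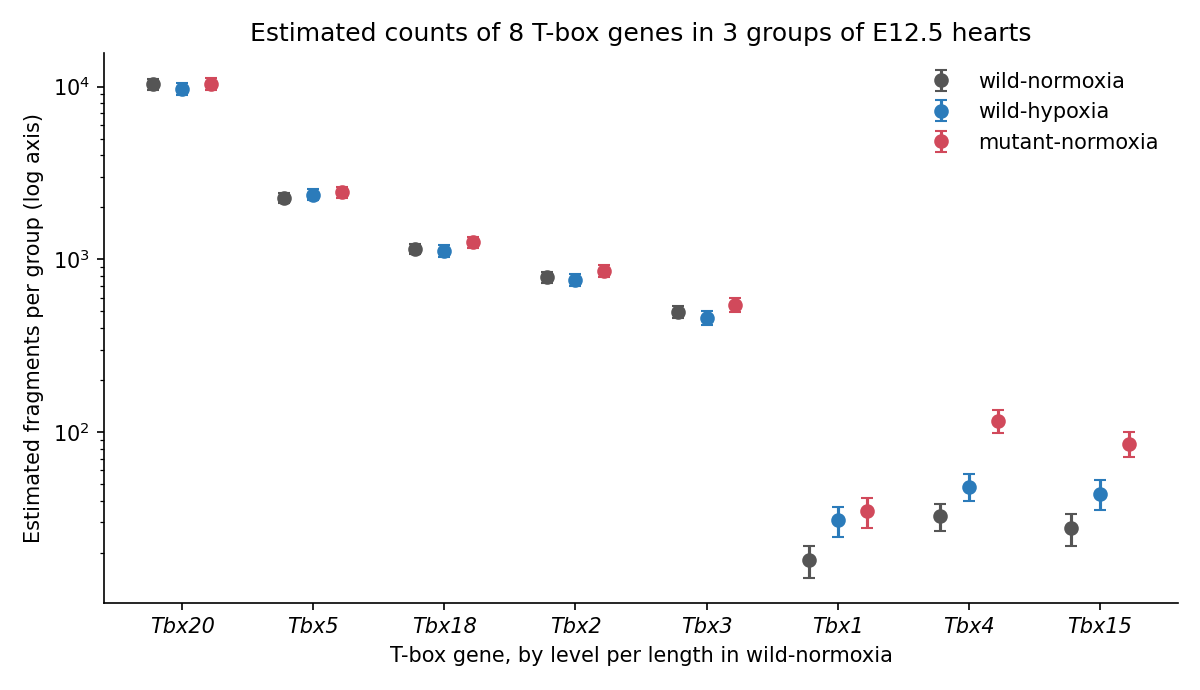
Estimated fragments of each T-box gene (log axis) in wild-normoxia (grey), wild-hypoxia (blue) and mutant-normoxia (red), as group values with 1 model SE. The 5 abundant genes at left have overlapping values in the 3 groups, and Tbx4 and Tbx15 at right stand at 116 and 85.6 fragments in mutant-normoxia against 32.6 and 27.7 in wild-normoxia.

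The low members differed more. In mutant-normoxia, 2 of the 8 genes, Tbx4 and Tbx15, were over 2-fold higher than in wild-normoxia and none was over 2-fold lower. Of all genes compared, 1.59% were over 2-fold higher and 0.494% over 2-fold lower. Among the 4066 genes with a mean of 20 to 150 fragments, a range chosen after the data were seen because it holds the low members, 2.73% were over 2-fold higher. In wild-hypoxia the share in that range was 1.67%. In that group 0 of the 8 genes were over 2-fold higher or lower, against 1.08% and 1.91% of all genes. The median difference of the 8 genes was 0.01 in wild-hypoxia and 0.13 in mutant-normoxia, beside -0.02 and -0.01 for all genes. All 8 had a value above 0 in mutant-normoxia, but 5 of these were within 1 model SE of 0, and Tbx20 had a value below 0 once counts were divided by group totals.

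Tbx4, a factor of the hindlimb bud and of the mesenchyme around the lung buds, had 32.6 ± 5.9 fragments (wild-normoxia), 48.4 ± 8.5 (wild-hypoxia) and 116 ± 17.3 (mutant-normoxia). It was 3.50-fold higher in mutant-normoxia than in wild-normoxia, a log2 difference of 1.81 ± 0.33 that is 5.48 model SE from 0. With the deposited variance left undivided, that distance was 2.89. In wild-hypoxia the difference was 0.56 ± 0.35. The mutant-normoxia value was thus higher than either wild-type value by more than the model errors. Mutant-normoxia was also over 2-fold higher than wild-hypoxia, by 1.25 ± 0.33. Tbx4 was the only member past 2-fold in that comparison, in which 1.73% of all genes were over 2-fold higher and 0.238% over 2-fold lower (2.75% higher among the 4066 genes of low count).

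Tbx15, a factor of skeletal and dermal precursors, had 27.7 ± 5.9 fragments (wild-normoxia), 44.1 ± 8.8 (wild-hypoxia) and 85.6 ± 14.2 (mutant-normoxia). It was 3.02-fold higher in mutant-normoxia than in wild-normoxia, a log2 difference of 1.59 ± 0.38 that is 4.21 model SE from 0, or 2.21 with the variance undivided. In wild-hypoxia the difference was 0.65 ± 0.41. Between mutant-normoxia and wild-hypoxia it was 0.94 ± 0.37, short of 2-fold. For Tbx4 and Tbx15 alike, wild-hypoxia stood between the other groups and closer to wild-normoxia.

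Tbx1, the member of the pharynx and the second heart field whose loss underlies much of DiGeorge syndrome in humans, had 18.2 ± 3.8, 30.9 ± 6.2 and 34.9 ± 6.8 fragments in wild-normoxia, wild-hypoxia and mutant-normoxia. Its differences from wild-normoxia were 0.73 ± 0.40 and 0.90 ± 0.40, neither over 2-fold. The second is 2.29 model SE from 0, and 1.22 with the variance undivided. Unlike Tbx4, Tbx1 had nearly the same value in wild-hypoxia and mutant-normoxia, which differed by 0.17 ± 0.39.

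In all, 3 of the 8 members were over 2 model SE higher in mutant-normoxia, where 3.14% of all genes were, and 0 of 8 in wild-hypoxia, where 2.24% were. Against wild-hypoxia, 2 of 8, Tbx4 and Tbx15, were over 2 model SE higher in mutant-normoxia, beside 1.98% of all genes. With the variance undivided, those distances were 2.20 for Tbx4 and 1.48 for Tbx15. The counts of Tbx1, Tbx4 and Tbx15 summed to 78.4 fragments (wild-normoxia), 123 (wild-hypoxia) and 237 (mutant-normoxia). The same sum for the other 5 members was 14988, 14431 and 15465. The differences of the low members thus concern a small part of the family's RNA. In bulk samples, more cells that transcribe a gene and more RNA per cell cannot be told apart.

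**Figure D3:**
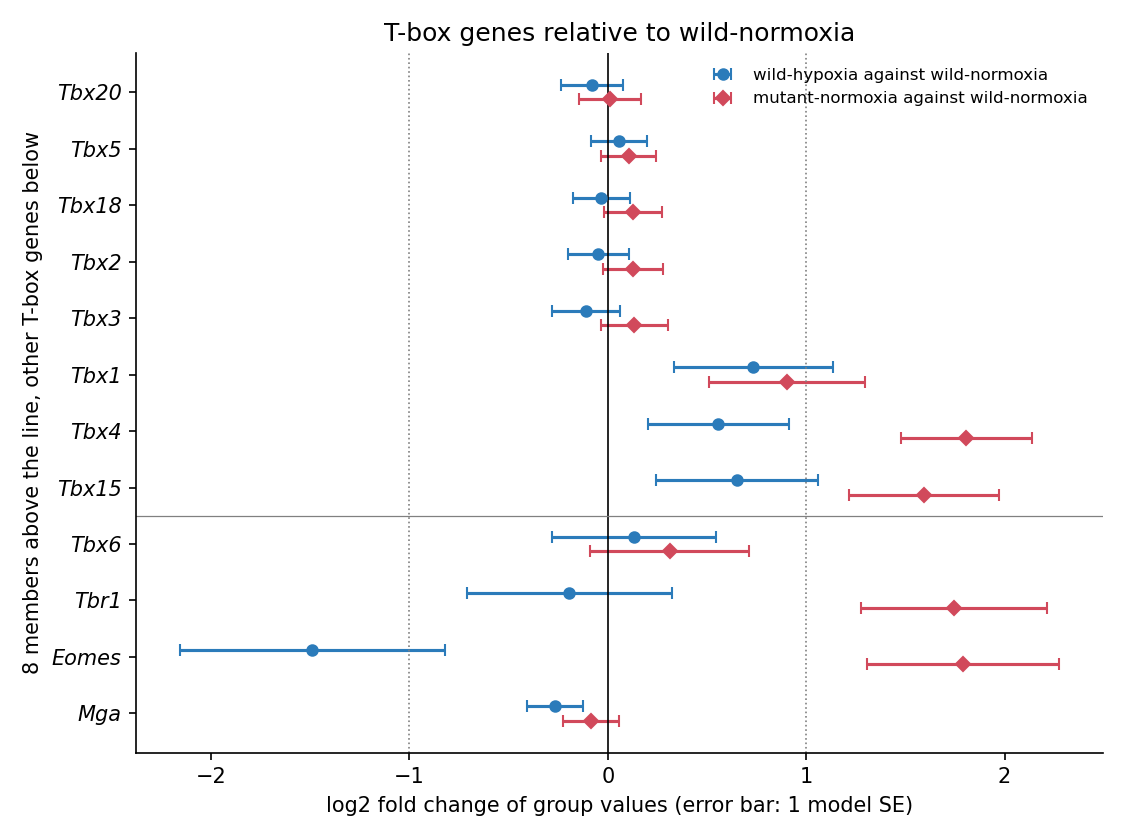
Log2 difference from wild-normoxia of the 8 members (above the grey line) and the 4 other T-box genes with enough fragments (below it), in wild-hypoxia (blue circles) and mutant-normoxia (red diamonds), with bars of 1 model SE. Dotted lines mark 2-fold; Tbx4 at 1.81 and Tbx15 at 1.59 lie past it in mutant-normoxia.

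Neighbouring genes differed by unequal amounts. Tbx2 differed by 0.13 in mutant-normoxia and Tbx4, the next T-box gene on the chromosome, by 1.81. Bcas3, the gene before Tbx2, had 426 fragments in wild-normoxia and 494 in mutant-normoxia, a log2 difference of 0.21 ± 0.17. Beside Tbx15, Wars2 differed by 0.08 ± 0.17, and Gnb1l beside Tbx1 by 0.10 ± 0.29. The higher values of Tbx4, Tbx15 and Tbx1 in mutant-normoxia were therefore not seen at these neighbours, which were named after their values were known. In the other pair, Tbx3 and Tbx5 both stayed within 1 model SE.

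Promoter sequences of RefSeq (GRCm38.p6) were at hand for 4 of the 8 members, Tbx1 (2 start sites), Tbx4, Tbx18 and Tbx20. The 250 bases before the start site were searched on both strands for the letters of an NK2 site (TNAAGTG), the kind of site that Nkx2-5 binds, a T-box half-site (AGGTGTGA), its core (GGTGTG), the letters AGATAA that zinc finger factors such as Gata4 bind, and the core of the element bound by hypoxia-inducible factors (ACGTG). The GGTGTG core lies within the half-site. Tbx4 is shown as the member that differed most and Tbx20 as the most abundant one. Neither window held the NK2 letters, which occur in 10.1% of 32851 promoter windows. Capitals mark the ACGTG found in Tbx20, 64 bases before the start site. The Tbx4 window is chr11:85896515-85896764 on the plus strand and the Tbx20 window chr9:24774304-24774553 on the minus strand. The Tbx4 window falls inside the locus that the authors printed for Tbx4. If both use the same build, it precedes an internal start site, and the sequence before the start of that locus was not searched.
Tbx4: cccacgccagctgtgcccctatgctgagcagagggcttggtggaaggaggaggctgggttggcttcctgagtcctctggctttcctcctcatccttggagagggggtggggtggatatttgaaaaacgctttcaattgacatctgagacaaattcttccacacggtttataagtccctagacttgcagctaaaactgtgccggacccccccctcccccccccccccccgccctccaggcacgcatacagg
Tbx20: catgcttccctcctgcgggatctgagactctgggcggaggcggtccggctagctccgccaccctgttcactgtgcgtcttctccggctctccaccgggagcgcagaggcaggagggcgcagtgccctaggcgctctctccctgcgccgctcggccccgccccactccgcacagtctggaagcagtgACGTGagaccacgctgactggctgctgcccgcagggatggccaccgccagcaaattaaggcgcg

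One of the Tbx1 windows also held ACGTG, which occurs in 16.6% of promoter windows, and the Tbx4 and Tbx18 windows did not. None of the windows of the 4 genes held the half-site (1.12% of promoter windows), its core (16.3%) or AGATAA (9.99%). A match marks letters, not a bound site, and a missing match says nothing about factors that act from elsewhere.

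The mouse has further T-box genes, and 9 of them were examined beside the members. Only 4 reached 10 fragments in some group; of these, 2 were over 2-fold higher in mutant-normoxia and 1 was over 2-fold lower in wild-hypoxia, with medians of 1.03 and -0.23. Mga, which encodes a large protein that joins a T-box with a partner domain for Max, had 3104 ± 197 fragments (wild-normoxia), 2581 ± 196 (wild-hypoxia) and 2932 ± 218 (mutant-normoxia), with differences of -0.27 ± 0.14 and -0.08 ± 0.14. Tbx6, a gene of the presomitic mesoderm, had 18.9, 20.8 and 23.7 fragments, with differences of 0.13 ± 0.41 and 0.31 ± 0.40. Neither was over 2-fold in either direction.

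Eomes and Tbr1 are closely related T-box genes known from the developing cortex. Eomes had 10.5 ± 2.9 fragments (wild-normoxia), 3.08 ± 1.6 (wild-hypoxia) and 38.6 ± 8.7 (mutant-normoxia), so that it was lower in wild-hypoxia by a log2 difference of -1.49 ± 0.67 and higher in mutant-normoxia by 1.79 ± 0.48. Tbr1 had 10.5 ± 2.7, 9.06 ± 2.7 and 37.6 ± 8.6 fragments, with differences of -0.20 ± 0.52 and 1.75 ± 0.47. With a pseudocount of 10 the Eomes difference in wild-hypoxia was -0.64, no longer past 2-fold, and with the variance undivided it was -1.23 model SE from 0. With the variance undivided, the mutant-normoxia differences of Eomes and Tbr1 were 1.96 and 1.99 model SE from 0. Unlike Tbx4 and Tbx15, both stood at or below wild-normoxia in wild-hypoxia. The 8 neuron markers compared had 3 genes over 2-fold lower in wild-hypoxia and 1 over 2-fold lower in mutant-normoxia, with medians of -0.84 and 0.26. Among those with 50 fragments or more, Nhlh2, Elavl3 and Dcx had the largest differences. Nhlh2 stood at 78.6, 12.0 and 36.9 fragments in wild-normoxia, wild-hypoxia and mutant-normoxia, and Dcx at 150, 87.0 and 202. Of the 8 markers, 7 had a higher value in mutant-normoxia than in wild-normoxia. Against wild-hypoxia, 5 of the 8 were over 2-fold higher in mutant-normoxia, with a median of 1.37, where 1.73% of all genes were over 2-fold higher. The part of neuronal RNA in the Eomes and Tbr1 values was not tested.

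The remaining 5 genes, Brachyury (T), Tbx10, Tbx19, Tbx21 and Tbx22, stayed under 10 fragments in all 3 groups and were not compared. The highest of these values was 3.87, for Brachyury in wild-hypoxia, and such counts do not tell low transcription from none.

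Among partners of the T-box factors, none of 14 cofactor genes was over 2-fold in either direction, and the medians were 0.07 in wild-hypoxia and 0.06 in mutant-normoxia. Gata4, a zinc finger partner of Tbx5 and Tbx20, had 6893, 7384 and 7218 fragments. Chd4, a chromatin remodeller that Tbx20 and Tbx5 recruit, had 9639, 9408 and 9978. Isl1, a factor of second heart field progenitors, was the farthest from wild-normoxia among the 14 in mutant-normoxia, at 0.71 ± 0.25.

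The listed genes of the chamber myocardium stayed under 2-fold, though some lay more than 2 model SE from wild-normoxia. Of 14 chamber myocardium genes, which include targets that Tbx5 activates and Tbx2 and Tbx3 repress, none was over 2-fold in either comparison, and the medians were -0.11 in wild-hypoxia and -0.07 in mutant-normoxia. Nppa, the gene of atrial natriuretic peptide, had 30865 fragments (wild-normoxia), 28688 (wild-hypoxia) and 25299 (mutant-normoxia), differences of -0.11 ± 0.20 and -0.29 ± 0.20. Atp2a2, the calcium pump of the sarcoplasmic reticulum, differed by -0.04 ± 0.23 and 0.06 ± 0.23. Hopx was the lowest of the chamber list in mutant-normoxia, at -0.58 ± 0.14, which is 4.19 model SE below 0, or 2.26 with the variance undivided. Hey2, at -0.39 ± 0.14 in mutant-normoxia, and Nppb, at -0.30 ± 0.14 in wild-hypoxia, were the other chamber genes past 2 model SE. Hopx, Hey2 and Nppb were named after their values were seen.

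The 14 genes of the atrioventricular canal and node, where Tbx2 and Tbx3 act, likewise held none over 2-fold, with medians of -0.04 and 0.02. Bmpr1a, a receptor of the BMP signal that induces Tbx2, differed by -0.23 ± 0.14 and -0.17 ± 0.14, and Id2 by -0.04 ± 0.14 and -0.14 ± 0.14. Kcne1, a potassium channel subunit named after its values were seen, was the lowest of the list, with 1215 fragments (wild-normoxia), 977 (wild-hypoxia) and 835 (mutant-normoxia). Its differences were -0.31 ± 0.15 and -0.54 ± 0.15, which are 2.15 and 3.64 model SE below 0, or 1.16 and 1.97 with the variance undivided. Hcn4, a pacemaker channel also named after its values were seen, was 0.29 ± 0.14 higher in mutant-normoxia. This is 2.06 model SE, or 1.11 with the variance undivided. Of 11 epicardial genes, the tissue of Tbx18, none was over 2-fold in wild-hypoxia and 1, Aldh1a1, was over 2-fold higher in mutant-normoxia, from 42.6 to 89.3 fragments. With a pseudocount of 10 the log2 difference of Aldh1a1 was 0.92, under 2-fold. The epicardial medians were 0.14 and 0.26. Aldh1a2, the retinoic acid enzyme of the epicardium, had 678, 921 and 1040 fragments, with differences of 0.44 ± 0.15 and 0.62 ± 0.15. These are 2.87 and 4.05 model SE above 0, or 1.54 and 2.17 with the variance undivided. Bnc1 had 373, 378 and 482 fragments and was 2.16 model SE higher in mutant-normoxia, or 1.16 undivided. Lrrn4 and Upk3b, named after their values were seen, were 2.06 and 2.01 model SE higher there, or 1.11 and 1.08 undivided.

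Several genes of the tissues in which Tbx1, Tbx4 and Tbx15 are best known stood higher in mutant-normoxia. Of 13 genes of the second heart field and pharynx, 3 were over 2-fold higher in mutant-normoxia and 1 in wild-hypoxia, with medians of 0.28 and 0.20. Fgf10, a ligand of second heart field and lung mesenchyme, stood at 53.9, 65.6 and 116 fragments. Of 12 genes of lung and foregut mesenchyme, a list that holds Tbx4 and Fgf10 themselves, 7 were over 2-fold higher in mutant-normoxia and 2 in wild-hypoxia, with medians of 1.16 and 0.45. Barx1, a factor of stomach mesenchyme, had 28.0, 60.8 and 182 fragments, and its differences were 1.09 ± 0.36 and 2.66 ± 0.32. Foxf1, a factor of lung and gut mesenchyme, had 48.2, 113 and 304 fragments, but its model SE of 7.87 on the log2 scale in mutant-normoxia leaves the difference of 2.63 without precision.

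Genes of the lung and foregut epithelium were higher in the same group. Of 11 such genes, 8 were over 2-fold higher in mutant-normoxia, none was over 2-fold lower, and the median was 1.35. In wild-hypoxia 1 was over 2-fold higher and 1 lower, with a median of 0.62. Nkx2-1, the factor that defines lung and thyroid epithelium, went from 0.77 fragments in wild-normoxia to 81.6 in mutant-normoxia, with 9.32 in wild-hypoxia. It was the gene over 2-fold higher in wild-hypoxia, and Shh, a ligand of that epithelium named after its values were seen, was the gene over 2-fold lower. With a pseudocount of 10 neither stayed past 2-fold, at 0.84 and -0.53. Grhl2, a regulator of epithelial junctions, and Cldn6, a junction protein, differed by 1.46 ± 0.46 and 1.41 ± 0.32 in mutant-normoxia. The lung surfactant gene Sftpc, a marker of distal lung epithelium, had 2.12 fragments or fewer in every group and was named after its values were seen. The summed count was 857, 970 and 1376 fragments for the epithelium and 1108, 1379 and 2044 for the mesenchyme. Irx1, named after its values were seen, was the largest part of the epithelial sum, with 464, 472 and 415 fragments. Unlike most of the list it was not higher in mutant-normoxia, where it differed by -0.16 ± 0.17.

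Of 16 genes of limb and body wall mesenchyme, 6 were over 2-fold higher in mutant-normoxia and none was over 2-fold lower, with a median of 0.81. In wild-hypoxia the list had 1 gene over 2-fold lower, none higher and a median of -0.02. Emx2 had 33.5, 29.0 and 99.0 fragments, Pitx1, a hindlimb factor upstream of Tbx4, 27.0, 32.6 and 73.1, and Lhx2 102, 42.9 and 235. Lhx2 and Emx2 are also known from the forebrain. The whole list summed to 2711, 2772 and 3395 fragments. These values stand beside those of Tbx4 and Tbx15, and the part of lung, foregut, limb or body wall RNA in the T-box values was not tested.

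**Figure D4:**
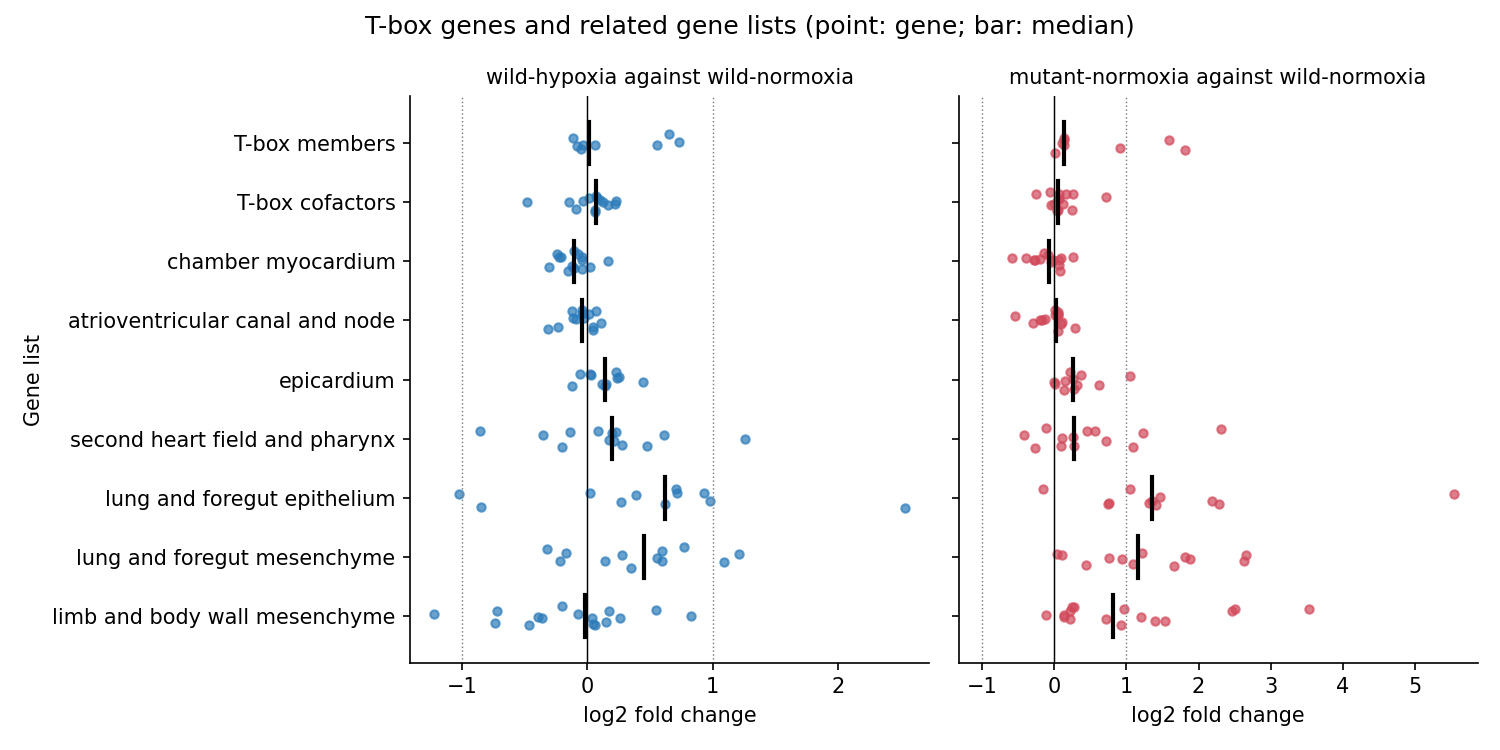
Log2 difference from wild-normoxia of the 8 T-box members and of genes in 8 related lists, in wild-hypoxia (left) and mutant-normoxia (right). Points are genes, vertical bars are list medians and dotted lines mark 2-fold; the medians of lung and foregut epithelium and mesenchyme are 1.35 and 1.16 in mutant-normoxia, and those of the chamber and atrioventricular lists are -0.07 and 0.02.

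Markers of other tissues also differed between the groups. Of 10 liver genes, Fgb, Afp and Ambp among them, all 10 were over 2-fold lower in wild-hypoxia and 8 in mutant-normoxia, with medians of -1.41 and -1.44. Of 10 keratinocyte genes, which include Krt5, Krt14 and Krt15, 6 were over 2-fold higher in each group, with medians of 1.66 and 1.51. Of 8 red cell genes, Alas2, Trim10 and Nfe2 among them, 6 and 5 were over 2-fold higher, with medians of 1.25 and 1.11. Of 9 skeletal muscle genes, 4 were over 2-fold higher in each group and 1 was lower in wild-hypoxia, with medians of 0.52 and 0.58, and Tnnt3, Myod1 and Myh3 differed most among those with 50 fragments or more. Tnnt3, a troponin of fast skeletal muscle, had 219, 633 and 1378 fragments, with a difference of 1.12 ± 0.52 between mutant-normoxia and wild-hypoxia. Their part in the T-box values was not tested.

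The genes outside the family whose pair of differences lay nearest to that of Tbx4 or Tbx15 were found among 12959 named genes that reached 50 fragments in 1 or more groups. The measure was the Euclidean distance between the log2 differences of wild-hypoxia and of mutant-normoxia, so it rests on 2 values from 3 groups. Nearest to Tbx4 was Hhip, a hedgehog-binding protein, at a distance of 0.08, with 15.0, 23.2 and 58.0 fragments in wild-normoxia, wild-hypoxia and mutant-normoxia. Hoxb9, Six2, Dlx1 and Hoxa7 followed at 0.28 to 0.36. Nearest to Tbx15 was Dlx1 at 0.10, followed by Six2, Cldn6, Arhgap36 and Dlx2, the last at 0.26. Six2 had 38.9, 65.1 and 114 fragments, and Arhgap36 68.3, 123 and 201. Dlx1 and Six2 appeared beside both T-box genes, but the model SE of Dlx1 was 1.14 in mutant-normoxia, wider than that of Tbx15 at 0.38.

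**Figure D5:**
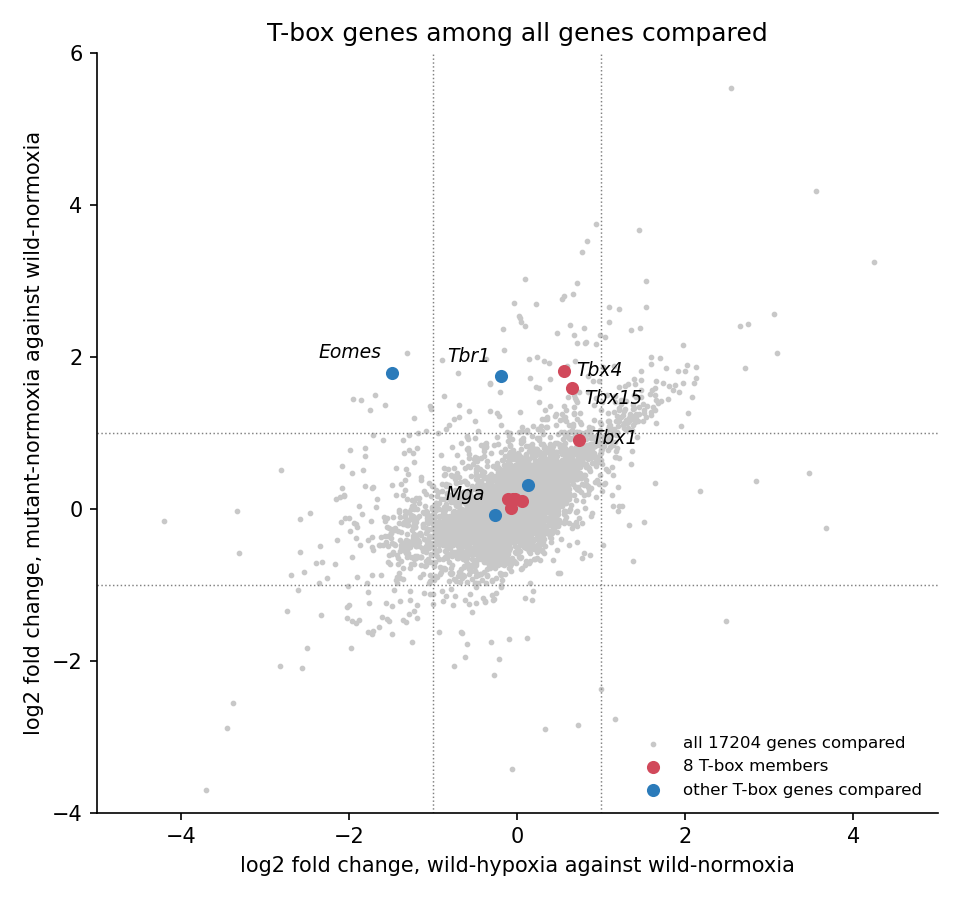
Log2 difference from wild-normoxia in wild-hypoxia (horizontal axis) and mutant-normoxia (vertical axis) for all 17204 genes compared (grey), the 8 members (red) and 4 other T-box genes (blue), with dotted lines at 2-fold. Both axes share the wild-normoxia values, so a slope between them is built in; Tbx4 and Tbx15 lie above the 2-fold line of mutant-normoxia and inside that of wild-hypoxia.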

How the data were processed

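RNA-seq of 10 pooled E12.5 heart samples in 3 groups was used. The authors checked reads with FastQC, mapped them with Bowtie2 and TopHat to a genome named mm9, and estimated expression with Cufflinks. Tool versions, the annotation release and the strand setting: not given in the sources used here. Each deposited value is an estimated count of 1 gene in 1 group, scaled across groups by the authors, with a model variance in squared fragments and a status. Genes lacking a successful estimate in 1 or more groups (34) were excluded. The annotation behind the table may not be that of mm9, so coordinates and lengths from NCBIM37 (GENCODE M1) describe that annotation only, and RefSeq promoters are in GRCm38.p6.

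Symbols were matched for 65.9% of identifiers, but not for Muc16, Hbb-bs, Hbb-bt, Pou3f2 and Miat. Log2 ratios used a pseudocount of 1, a minimum of 10 fragments in some group and a fold of 2. A count test on samples could not be made from group values. The 8 genes and the gene lists were chosen with earlier results of these data known. Named were all T-box genes, up to 3 genes per list with the largest difference at 50 fragments or more (or up to 2 of the highest count where none was over 2-fold), and the 5 nearest patterns of Tbx4 and of Tbx15. A gene that this rule names and a sequence are not reported here. Python 3.11.15, pandas 2.3.3, NumPy 2.4.6 and Matplotlib 3.10.9 were used, and the code was tested on simulated data.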

Additional observations from a re-analysis of the deposited data

How the results depend on the processing

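No paired analysis was possible because the deposited columns are group values that carry no replicate number, and leaving out a replicate could not be run for the same reason. Tbx4 and Tbx15 stayed over 2-fold higher in mutant-normoxia with a pseudocount of 10 (1.57 and 1.34), with either other scaling and with a minimum of 50 fragments. Dividing by group totals or centring on the median of abundant genes left every count within 1.5 times its value. Both moved the medians of all genes by under 0.1. The group totals left out the 34 genes without a successful estimate in every group. With a fold of 1.5, 3 members instead of 2 were higher in mutant-normoxia against wild-normoxia, Tbx1 being added. Of the 17204 genes compared, 642 were higher there at that fold. At that fold, 2 members were higher in wild-hypoxia, Tbx1 and Tbx15, beside 497 of all genes compared. In mutant-normoxia against wild-hypoxia 2 members were higher, Tbx4 and Tbx15, beside 732 of all genes compared.

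Over all genes, the counts past 2-fold were 186 higher and 329 lower (wild-hypoxia), 273 and 85 (mutant-normoxia), and 298 and 41 in mutant-normoxia against wild-hypoxia. In the same order they were 110 and 112, 146 and 33, and 103 and 19 with a pseudocount of 10. They were 103 and 84, 128 and 31, and 66 and 11 with a minimum of 50 fragments. They were 476 and 1029, 644 and 427, and 1026 and 294 with no filter, and 497 and 855, 642 and 337, and 732 and 195 with a fold of 1.5. Of the values for lists and single genes, 9 moved with a pseudocount of 10, 13 with a minimum of 50 fragments, 1 with no filter and 15 with a fold of 1.5. With the variance undivided 3 moved, the mutant-normoxia distances of Tbx1 (1.22 model SE), Tbx4 (2.89) and Tbx15 (2.21). With the longest transcript as length, Tbx20 stood at 140.0 and Tbx3 at 5.49 per length, and Tbx4 passed Tbx1. No value past 2-fold reversed. Eomes and Tbr1 never reached 50 fragments and dropped out under that minimum. The low counts of Tbx1, Tbx4 and Tbx15 and the absence of values for single samples limit all differences given for them.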
